A study of Mus musculus with 6 samples.

Results

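The genes described here encode collagens, other extracellular matrix proteins, matrix enzymes and their inhibitors, cytoskeletal proteins and signals of stromal cells, and they were read in a mouse B-cell line, 230-238. They were chosen by name, as a list of 35 genes, with earlier results of these data known. Their counts, set beside shares of all probe sets, are therefore descriptions. Of the 35, 33 had a probe set that names that gene alone, out of 19937 genes measured in this way on the array. Cells that received a plasmid encoding GFP and FOG1 (GFP+FOG1, 3 arrays) were compared with cells that received a plasmid encoding GFP alone (GFP, 3 arrays). FOG1, the product of Zfpm1, is a cofactor of GATA transcription factors. Both groups carry GFP and passed the same sort for it, 3 days after infection and 4 days before the RNA was isolated. The labels call the samples of a group biological replicates but do not say whether they were infected separately, so a p-value here speaks only to the scatter among the 6 samples, which may be technical.

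The extracellular matrix is built mainly by fibroblasts and other mesenchymal cells, which secrete fibrillar collagens, fibronectin and proteoglycans and crosslink them outside the cell. In bone marrow, stromal cells also hold developing B cells in place and feed them, through the chemokine CXCL12, the adhesion molecule VCAM1 and the Kit ligand. Blood cells themselves are known for vimentin and for the actin cytoskeleton rather than for collagen production.

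The check of the labels came first. Zfpm1 had log2 signals of 10.21, 10.16 and 10.17 on the GFP+FOG1 arrays, against 9.41, 9.49 and 9.43 on the GFP arrays, and it was higher in GFP+FOG1 (log2 change 0.74; adjusted p = 0.0038 in limma). Array medians lay between 6.98 and 7.04 log2 units, and no array correlated below 0.9925 with another over all probe sets. Of 12 B-lineage markers, 11 were measured and 10 of them lay above the median signal of the GFP arrays, among them the B-cell receptor chain gene Cd79a, the surrogate light chain gene Igll1 and the B-lineage transcription factor gene Ebf1.

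In these cells, 27 of the 33 stromal and matrix genes gave signals above nearly all of the olfactory and vomeronasal receptors, which served as a yardstick of background, and none of the 33 passed the test between the groups. Their arrays were spread in a shared order. GFP+FOG1 replicate 3 was the lowest of the 6 arrays for 28 of the 33 genes, and GFP+FOG1 replicate 1 was the highest for 23. Over all 34760 probe sets, those shares were 17.9% and 12.2%. The sign of the difference between the groups rested on 1 array. The median log2 change of the 33 genes was -0.11 with all arrays and 0.08 without GFP+FOG1 replicate 3, against -0.01 and -0.01 over all probe sets. In RNA from a whole culture, fewer cells of a type and less RNA per cell cannot be told apart.

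The start regions of 5 of the genes are shown first, because FOG1 acts through GATA factors and because this family includes known targets of the transcription factors SRF and TEAD. Windows from 250 bases before to 50 bases after the start site were taken from RefSeq (GRCm38.p6), and 23 of the 33 measured genes had at least 1, with 26 windows in all. The windows of Acta2, Col6a2 and Timp1 are those in which GATAA was found. Cyr61 stands for the genes with wide swings between arrays, and Tagln2 for those with narrow ones. Capitals mark GATAA, the core recognised by GATA factors, GGAATG, the core recognised by TEAD factors, and TATAAA, each on either strand. No 2 matches overlap in these windows. Acta2 at chr19:34255324-34255623, minus strand; Col6a2 at chr10:76623581-76623880, minus strand; Timp1 at chrX:20869916-20870215, plus strand; Cyr61 (named Ccn1 in RefSeq) at chr3:145649936-145650235, minus strand; and Tagln2 at chr1:172499996-172500295, plus strand, read 5′ to 3′ as follows.
Acta2: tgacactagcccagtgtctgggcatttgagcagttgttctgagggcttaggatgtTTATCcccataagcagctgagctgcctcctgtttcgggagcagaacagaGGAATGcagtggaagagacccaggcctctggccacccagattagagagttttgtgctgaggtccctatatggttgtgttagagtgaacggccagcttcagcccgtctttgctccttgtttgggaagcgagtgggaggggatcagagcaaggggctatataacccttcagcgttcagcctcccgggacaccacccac
Col6a2: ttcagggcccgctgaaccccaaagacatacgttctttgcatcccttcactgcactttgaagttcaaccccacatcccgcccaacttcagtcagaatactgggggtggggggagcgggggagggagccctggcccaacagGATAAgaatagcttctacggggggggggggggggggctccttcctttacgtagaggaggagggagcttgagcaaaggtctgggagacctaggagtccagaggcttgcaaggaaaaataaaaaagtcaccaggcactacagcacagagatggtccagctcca
Timp1: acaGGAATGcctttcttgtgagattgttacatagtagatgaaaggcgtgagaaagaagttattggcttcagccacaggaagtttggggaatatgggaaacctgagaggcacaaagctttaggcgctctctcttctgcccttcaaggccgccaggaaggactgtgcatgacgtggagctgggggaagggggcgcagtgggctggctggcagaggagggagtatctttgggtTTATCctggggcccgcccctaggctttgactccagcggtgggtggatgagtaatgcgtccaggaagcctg
Cyr61: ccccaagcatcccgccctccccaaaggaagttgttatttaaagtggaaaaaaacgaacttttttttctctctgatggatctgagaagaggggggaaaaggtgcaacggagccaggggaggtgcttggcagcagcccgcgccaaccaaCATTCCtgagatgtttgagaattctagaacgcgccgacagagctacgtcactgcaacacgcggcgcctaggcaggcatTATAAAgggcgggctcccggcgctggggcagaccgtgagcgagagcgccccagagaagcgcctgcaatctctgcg
Tagln2: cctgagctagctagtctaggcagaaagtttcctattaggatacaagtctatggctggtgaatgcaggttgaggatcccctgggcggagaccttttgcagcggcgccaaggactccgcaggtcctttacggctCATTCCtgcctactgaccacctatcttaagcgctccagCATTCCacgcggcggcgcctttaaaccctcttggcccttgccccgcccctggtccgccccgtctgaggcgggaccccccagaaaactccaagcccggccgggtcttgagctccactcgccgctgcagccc

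GATAA was found in 3 of the 26 windows, each of a different gene, and 25.4% of all 32851 windows in the RefSeq table hold it. GGAATG was found in 7 of the 26 windows, against 14.7% of all windows, and TATAAA in 5, against 13.6%. The CArG box, the element bound by SRF, was searched only in its strict form, CC, then 6 bases of A or T, then GG, with no mismatch allowed. That form was found in 1 of the 26 windows, that of Myl9, against 1.63% of all windows. The CArG elements known in the Acta2 promoter depart from the strict form and were not counted, although the window printed above holds them. These matches describe letters in the window, not binding.

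The signal level was taken as the mean over the 3 GFP arrays, and the median of that mean over all probe sets was 7.004 log2 units. Of the 33 genes, 24 lay above it. The 1204 probe sets of olfactory and vomeronasal receptors, which B cells are not known to use, had a median of 5.28 and a 95th percentile of 6.88, and 27 of the 33 genes lay above that percentile, as did 52.3% of all probe sets. Nearest above the median was Col4a2, at 7.41, and nearest below it were Pdgfra at 7.003 and Col5a2 at 6.99. Cxcl12, at 6.88, lay at the receptors' percentile. The 6 genes below both limits were Tagln, Myl9, Cnn1, Postn, Dcn and Lum, between 4.37 and 6.32, so background may make up some of their signal and understate a difference. Loxl2 was read only by a probe set that also names another gene, and it and the fibrillin gene Fbn1 were not analysed here.

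**Figure D1:**
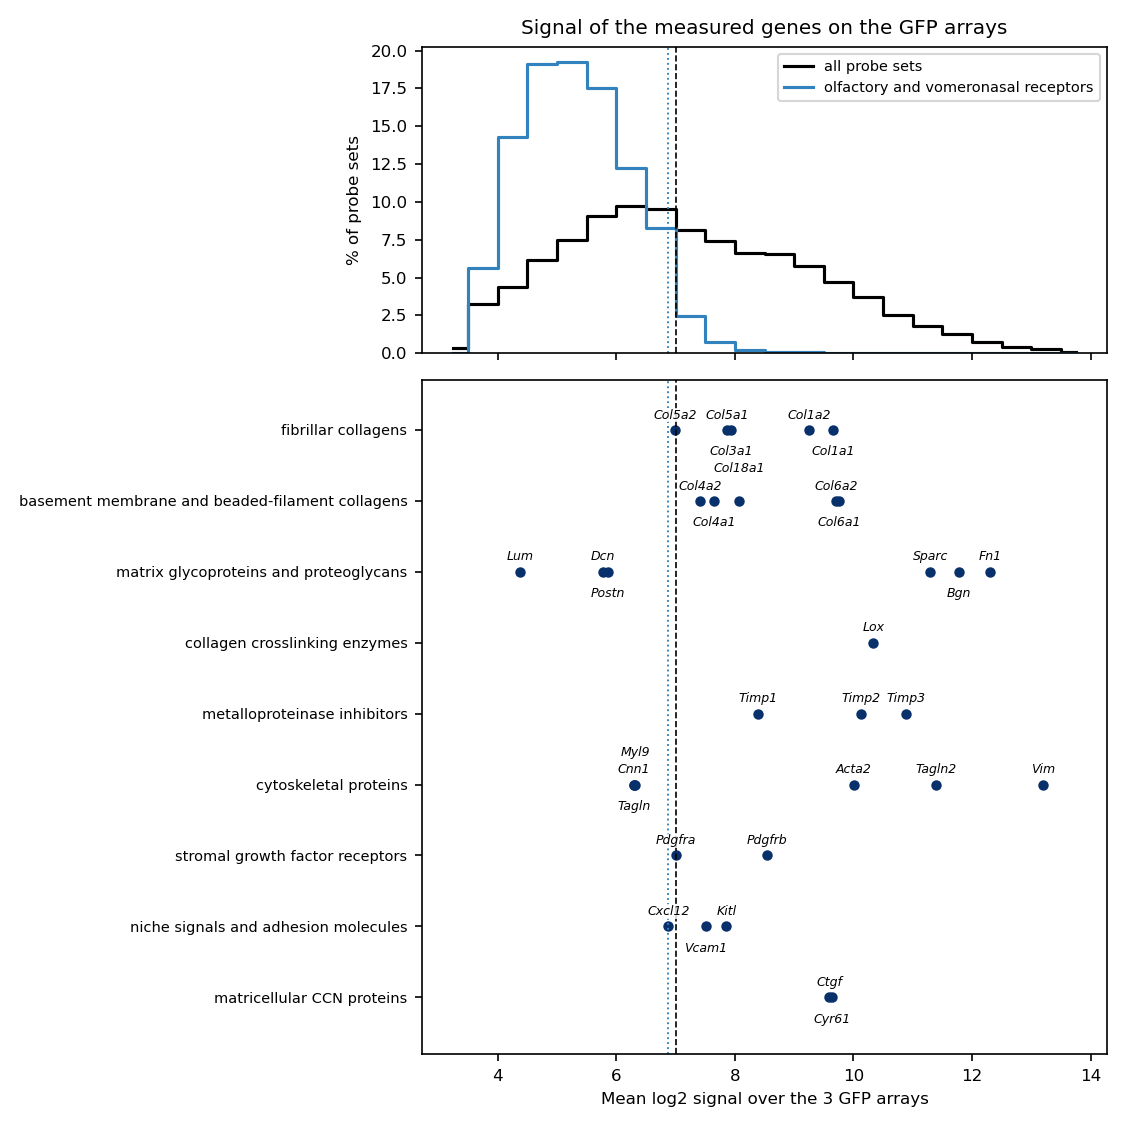
Mean log2 signal over the 3 GFP arrays. The upper panel gives the share of probe sets in steps of 0.5 log2 units, for all probe sets and for olfactory and vomeronasal receptors. The lower panel gives the 33 genes by role. The dashed line is the median of all probe sets (7.004) and the dotted line the 95th percentile of the receptors (6.88), and 24 and 27 genes lie above them.

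Over the whole array, 78 of 34760 probe sets (0.224%) passed an adjusted p of 0.05, and none of the 33 genes did (limma with Benjamini-Hochberg; lowest adjusted p 0.461). No member had an unadjusted p under 0.05 either, where 12.5% of all probe sets did (limma). The groups did not overlap for 1 of the 33 genes, Cnn1, which was lower on all 3 GFP+FOG1 arrays, where 19.6% of all probe sets showed such a separation (9.13% higher and 10.5% lower in GFP+FOG1). Log2 changes ran from -0.33 to 0.12, with 28 genes below 0 and 5 above, and 53.8% of all probe sets were below 0. Without GFP+FOG1 replicate 3, 24 of the 33 genes were above 0, against 44.5% of all probe sets, and again none passed. That array was the lowest for 28 of the 33 genes, so leaving it out raises their log2 change by construction.

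Fibrillar collagens form the rope-like fibres of connective tissue, and 5 of their chain genes were measured. Col1a1, which encodes the first chain of type I collagen, had log2 signals of 9.90, 9.61 and 8.99 on GFP+FOG1 arrays 1, 2 and 3, against 9.53, 9.73 and 9.70 on the GFP arrays. The highest and the lowest of the 6 values were both from GFP+FOG1 arrays, on either side of the GFP arrays, so the groups overlapped. Its log2 change was -0.15 (SE 0.22; limma adjusted p = 0.795), and 0.10 without replicate 3. Col1a2, its partner chain, showed the same placing of arrays, with 9.55, 9.21 and 8.71 in GFP+FOG1 and 9.11, 9.38 and 9.25 in GFP. Its log2 change was -0.09 (SE 0.20), and 0.13 without replicate 3.

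Col3a1, the chain of type III collagen, had 8.14, 8.08 and 7.67 in GFP+FOG1 and 7.80, 8.002 and 8.02 in GFP. Col5a1, of the type V collagen that starts fibrils, had 8.07, 7.84 and 7.67 in GFP+FOG1 and 7.74, 7.999 and 7.89 in GFP. For both, as for Col5a2, GFP+FOG1 replicate 1 was the highest array and replicate 3 the lowest. The log2 changes of Col3a1, Col5a1 and Col5a2 were 0.03, -0.02 and -0.02, each smaller than its SE of 0.11 to 0.15. Col3a1 and Col5a2 are direct neighbours among protein-coding genes.

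Type IV collagen forms the sheet of basement membranes, type VI collagen forms beaded filaments near cells, and type XVIII collagen is a basement membrane proteoglycan. Among the 10 collagen genes of the main list, Col6a1 and Col6a2 spread most between GFP+FOG1 arrays. Col6a1 had 10.09, 9.79 and 8.75 in GFP+FOG1 and 9.56, 9.92 and 9.81 in GFP, and replicate 3 lay 1.01 below the GFP mean. Its neighbour Col6a2 had 10.03, 9.74 and 8.57 in GFP+FOG1 and 9.54, 9.83 and 9.76 in GFP, and replicate 3 lay 1.14 below. The 3 GFP+FOG1 values of Col6a2 spanned 1.46 log2 units and its 3 GFP values 0.29. Its log2 change of -0.26 had an SE of 0.36 (limma adjusted p = 0.778), and it was 0.17 without replicate 3.

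Col4a1 and Col4a2, which lie head to head and whose start windows overlap, did not share that swing. Col4a1 had 7.76, 7.65 and 7.56 in GFP+FOG1 and 7.54, 7.66 and 7.73 in GFP. Col4a2 had 7.45, 7.34 and 7.37 in GFP+FOG1 and 7.32, 7.45 and 7.46 in GFP. Their GFP+FOG1 values spanned 0.21 and 0.10 log2 units, near the 0.19 and 0.14 of their GFP values, and for both the lowest array was GFP replicate 1. The log2 changes were 0.01 (SE 0.075) and -0.02 (SE 0.058). Col18a1 had 8.25, 8.08 and 7.84 in GFP+FOG1 and 7.94, 8.16 and 8.13 in GFP, so the ends of its range again were GFP+FOG1 replicates 1 and 3.

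Among matrix glycoproteins and proteoglycans, Fn1, Bgn and Sparc spread over the arrays in the same order. Fn1, which encodes fibronectin, the adhesive glycoprotein that cells bind through integrins, had 12.50, 12.23 and 11.65 in GFP+FOG1 and 12.12, 12.36 and 12.44 in GFP. Bgn, which encodes the small proteoglycan biglycan, had 12.04, 11.79 and 11.003 in GFP+FOG1 and 11.64, 11.82 and 11.89 in GFP. Sparc, which encodes a collagen-binding matricellular protein, had 11.63, 11.30 and 10.45 in GFP+FOG1 and 11.07, 11.35 and 11.46 in GFP. On all 3 genes GFP+FOG1 replicate 1 was the highest array and replicate 3 the lowest, 0.66 to 0.84 below the GFP mean. The log2 changes were -0.18 (SE 0.21) for Fn1, -0.18 (SE 0.25) for Bgn and -0.17 (SE 0.29) for Sparc, and 0.06, 0.13 and 0.17 without replicate 3.

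The proteoglycan genes Dcn and Lum, which encode decorin and lumican and are direct neighbours, lay among the background signals. Dcn had 5.84, 5.79 and 5.92 in GFP+FOG1 and 5.69, 5.79 and 5.86 in GFP, and here GFP+FOG1 replicate 3 was the highest array. Lum had 4.44, 4.45 and 4.33 in GFP+FOG1 and 4.34, 4.33 and 4.45 in GFP. Postn, which encodes the matricellular protein periostin, lay between 5.66 and 6.20 on the GFP+FOG1 arrays and between 5.75 and 6.06 on the GFP arrays, with a log2 change of 0.12 (SE 0.16). These 3 genes are 3 of the 5 with a log2 change above 0, and none of those changes passed.

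Lox encodes lysyl oxidase, which crosslinks collagen and elastin. It had 10.59, 9.97 and 9.59 in GFP+FOG1 and 10.23, 10.34 and 10.43 in GFP. GFP+FOG1 replicates 2 and 3 both lay below all GFP arrays, while replicate 1 lay above them. The log2 change was -0.29 (SE 0.24; limma adjusted p = 0.638), and -0.06 without replicate 3.

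The TIMP proteins inhibit the metalloproteinases that cut matrix. Timp1 had 8.47, 8.04 and 7.66 in GFP+FOG1 and 8.12, 8.40 and 8.64 in GFP. Timp2 had 10.38, 10.09 and 9.37 in GFP+FOG1 and 9.83, 10.18 and 10.37 in GFP. Timp3 had 11.23, 10.89 and 10.20 in GFP+FOG1 and 10.60, 10.92 and 11.15 in GFP. GFP replicate 1 was the lowest GFP array for all 3, with GFP values spanning 0.51 to 0.55 log2 units, so these genes also spread within the GFP group. Timp1 had the most negative log2 change of the 33 genes, -0.33 (SE 0.22; limma adjusted p = 0.567), and it stayed below 0 without replicate 3, at -0.13. Those of Timp2 and Timp3 were -0.18 and -0.11, and 0.11 and 0.17 without it.

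The cytoskeletal genes differed in how far apart their arrays lay. Vim, which encodes vimentin, the intermediate filament protein of mesenchymal and blood cells, had 13.17, 13.11 and 12.99 in GFP+FOG1 and 13.16, 13.21 and 13.24 in GFP. Its values overlapped at 1 array, and the log2 change was -0.11 (SE 0.060; limma adjusted p = 0.482). Tagln2, which encodes transgelin 2, an actin-binding protein known from lymphocytes, had 11.40, 11.36 and 11.33 in GFP+FOG1 and 11.36, 11.41 and 11.39 in GFP. Its GFP+FOG1 values spanned 0.07 log2 units, the narrowest such span among the 24 genes above the median, and its log2 change was -0.03 (SE 0.044).

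Acta2, which encodes smooth muscle actin, a marker of myofibroblasts, went with the matrix genes. It had 10.37, 10.05 and 9.40 in GFP+FOG1 and 9.93, 9.93 and 10.15 in GFP, so replicate 3 lay 0.60 below the GFP mean and replicate 1 lay 0.37 above it. Its log2 change was -0.06 (SE 0.23), and 0.21 without replicate 3. Tagln, Myl9 and Cnn1, which encode contractile proteins of smooth muscle, lay below both limits of signal. Tagln had 6.23, 6.18 and 5.92 in GFP+FOG1 and 6.23, 6.21 and 6.47 in GFP (log2 change -0.19, SE 0.11; limma adjusted p = 0.497). Cnn1, which encodes calponin, had 6.23, 6.18 and 6.23 in GFP+FOG1 and 6.30, 6.33 and 6.27 in GFP. This was the gene whose groups did not overlap, with a log2 change of -0.09 (SE 0.043), a limma adjusted p of 0.461 and a signal among the background. Myl9 ran from 6.03 to 6.46 on the GFP+FOG1 arrays and from 6.25 to 6.43 on the GFP arrays.

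The PDGF receptors mark fibroblasts and pericytes. Pdgfrb had 8.97, 8.59 and 7.59 in GFP+FOG1 and 8.42, 8.54 and 8.65 in GFP. Replicate 1 lay 0.43 above the GFP mean and replicate 3 lay 0.94 below it, on both sides of the GFP arrays. Its log2 change was -0.15 (SE 0.33), and 0.24 without replicate 3. Pdgfra ran from 6.65 to 7.24 in GFP+FOG1 and from 6.95 to 7.04 in GFP, with the same 2 GFP+FOG1 arrays at its ends.

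Of the signals by which stroma supports B-cell precursors, Vcam1, whose product binds the integrin VLA-4, had 7.63, 7.44 and 7.13 in GFP+FOG1 and 7.59, 7.56 and 7.39 in GFP. Kitl, which encodes the ligand of the receptor Kit, had 7.78, 7.72 and 7.32 in GFP+FOG1 and 7.62, 7.89 and 8.07 in GFP (log2 change -0.25, SE 0.16; limma adjusted p = 0.545). For both, replicate 3 was the lowest array and the other GFP+FOG1 arrays lay within or near the GFP range. Cxcl12, whose product attracts B-cell precursors through CXCR4, ran from 6.48 to 7.03 in GFP+FOG1 and from 6.83 to 6.92 in GFP. Without replicate 3 the log2 changes were 0.02 for Vcam1, -0.11 for Kitl and -0.04 for Cxcl12.

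The CCN proteins are matricellular proteins whose genes are known targets of YAP and SRF. Ctgf (Ccn2) had 9.93, 9.57 and 8.95 in GFP+FOG1 and 9.39, 9.73 and 9.65 in GFP. Cyr61 (Ccn1) had 9.96, 9.38 and 8.74 in GFP+FOG1 and 9.50, 9.75 and 9.66 in GFP. Replicate 3 lay 0.64 and 0.90 below the GFP mean, and replicate 1 lay 0.34 and 0.32 above it. The log2 changes were -0.11 (SE 0.24) and -0.28 (SE 0.29; limma adjusted p = 0.705), and 0.16 and 0.03 without replicate 3.

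**Figure D2:**
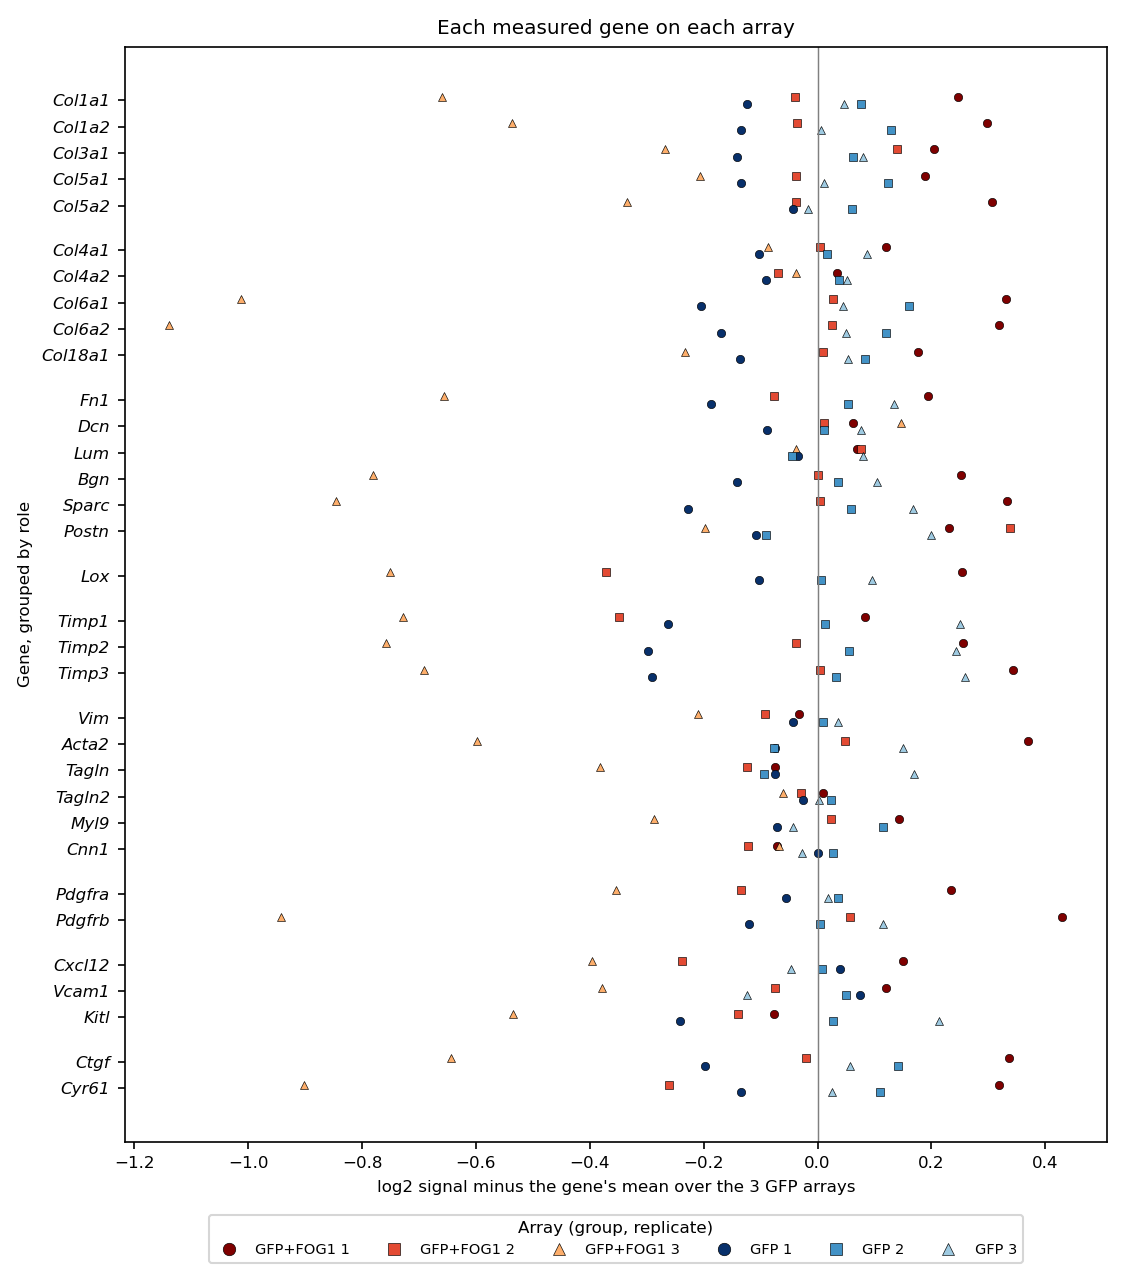
Each of the 33 measured genes on each array, as log2 signal minus that gene's mean over the 3 GFP arrays, with GFP+FOG1 arrays in red and orange just above GFP arrays in blue. GFP+FOG1 replicate 3 (light triangles) is the lowest array for 28 genes and GFP+FOG1 replicate 1 (dark circles) the highest for 23, while Tagln2 and Col4a2 stay close to 0.

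Over the 24 genes above the median signal, the median position relative to the GFP mean was 0.25 on GFP+FOG1 replicate 1, -0.03 on replicate 2 and -0.65 on replicate 3, and -0.14, 0.05 and 0.07 on the GFP arrays. Over all probe sets the same medians lay between -0.02 and 0.02 on every array. Replicate 3 was the lowest of the 6 arrays for 22 of the 24 and replicate 1 the highest for 19, against 17.2% and 11.7% of the probe sets above the median. Within GFP+FOG1, replicate 1 was the highest and replicate 3 the lowest for 28 of the 33 genes, against 16.9% of all probe sets, and for 23 of the 24, against 16.7% of probe sets above the median. Within GFP, replicate 1 was the lowest array for 27 of the 33 genes, against 38.6% of all probe sets. The GFP+FOG1 values spanned more than the GFP values for 30 of the 33 genes, against 50.3% of all probe sets. The SD over GFP+FOG1 arrays had a median of 0.45 for the 24 genes and the SD over GFP arrays one of 0.13, while both were 0.06 over all probe sets above the median.

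Other genes of the same pathways, on lists that hold none of the 33 genes, were read in the same way. None of 199 measured genes on 9 lists passed, and 19 had an unadjusted p under 0.05 (limma), where 12.5% of all probe sets did. Of 34 other matrix proteins, 27 had a log2 change below 0, with a median of -0.08, and GFP+FOG1 replicate 3 was the lowest array for 22 of them. Without replicate 3 the median was -0.0091, and 14 of the 34 were above 0. Thbs1, which encodes thrombospondin 1, had 10.15, 9.51 and 8.66 in GFP+FOG1 and 9.61, 9.96 and 9.76 in GFP. Nid1, the basement membrane linker nidogen, had 10.17, 9.57 and 9.21 in GFP+FOG1 and 9.80, 10.04 and 10.17 in GFP. Both genes have GFP+FOG1 replicate 3 below every GFP array. Eln, which encodes elastin, lay the other way, with 7.40, 7.42 and 7.60 in GFP+FOG1 and 7.37, 7.39 and 7.34 in GFP. Its log2 change of 0.11 did not pass (limma adjusted p = 0.535). The groups did not overlap for 1 of the 34 that was higher and 2 that were lower, where 9.13% and 10.5% of all probe sets were so placed.

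Of 25 matrix processing enzymes, 22 were below 0, with a median of -0.10, and replicate 3 was the lowest array for 20. Mmp2, a gelatinase, had 9.85, 9.52 and 8.66 in GFP+FOG1 and 9.30, 9.62 and 9.68 in GFP. P4hb, a subunit of the collagen prolyl hydroxylase that also serves as a general folding enzyme, had 10.58, 10.53 and 10.46 in GFP+FOG1 and 10.52, 10.63 and 10.64 in GFP, a far narrower span. Without replicate 3, 10 of the 25 were above 0, and the median was -0.02.

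Receptors for matrix and niche signals are the other side of these contacts. The median log2 change of 25 such genes was -0.05, and 0.02 without replicate 3, with 14 of the 25 then above 0. Replicate 3 was the lowest array for 12 of them. Cxcr4, the receptor of CXCL12, had 11.76, 11.69 and 11.77 in GFP+FOG1 and 11.81, 11.75 and 11.69 in GFP, with overlapping groups. Itga4, the chain of VLA-4 that binds VCAM1, had 10.71, 10.78 and 10.80 in GFP+FOG1 and 10.88, 10.92 and 10.87 in GFP. Its groups did not overlap, with a log2 change of -0.13 that did not pass (limma adjusted p = 0.353). Cd44, the hyaluronan receptor, had 9.67, 9.59 and 9.55 in GFP+FOG1 and 9.75, 9.84 and 9.78 in GFP, also without overlap and also short of the threshold (log2 change -0.18; limma adjusted p = 0.285). Cd93 lay the other way, with 11.28, 11.30 and 11.38 in GFP+FOG1 and 11.19, 11.17 and 11.12 in GFP (log2 change 0.16, limma adjusted p = 0.310). The hyaluronan-binding protein gene Hmmr also had higher values on all 3 GFP+FOG1 arrays, at a log2 change of 0.17 that did not pass (limma adjusted p = 0.339). In all, the groups did not overlap for 2 receptors that were higher and 5 that were lower of 25, where 9.13% and 10.5% of all probe sets were so placed.

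Of 38 genes listed with the actin cytoskeleton, not all of them actin-binding, 34 lay above the median signal. The median SD of the 38 was 0.05 in both groups. Replicate 3 was the lowest array for 16 of the 38, against 17.9% of all probe sets, and some genes spread as widely as the matrix genes. Actn1, which encodes the actin crosslinker alpha-actinin 1 and was picked after its values were seen, had 9.84, 9.32 and 8.56 in GFP+FOG1 and 9.34, 9.58 and 9.75 in GFP. Cald1, Zyx, Vcl and the nuclear lamin gene Lmna, picked in the same way, had SDs of 0.44, 0.43, 0.40 and 0.36 over the GFP+FOG1 arrays. Replicate 3 was the lowest array for each. Actb, which encodes beta-actin, had 13.67, 13.66 and 13.70 in GFP+FOG1 and 13.68, 13.66 and 13.65 in GFP. Lgals1, which encodes galectin 1, ran from 12.43 to 12.71 in GFP+FOG1 and from 12.59 to 12.71 in GFP, with replicate 3 lowest. The smallest p on this list belonged to Tmsb10, a thymosin that binds actin monomers, at a log2 change of -0.13 (limma adjusted p = 0.358).

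Of 26 regulators and targets of SRF and YAP, 21 were below 0, with a median of -0.12, and -0.07 without replicate 3. Ptpn14, a phosphatase that restrains YAP, had 8.80, 8.51 and 8.66 in GFP+FOG1 and 8.93, 9.04 and 8.96 in GFP. Its groups did not overlap, and its log2 change of -0.32, the same without replicate 3, had the smallest p of this list but did not pass (limma adjusted p = 0.240). Yap1 itself was at -0.28 (limma adjusted p = 0.344), and Mrtfa, a coactivator of SRF, at 0.04.

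Of 20 markers of fibroblasts and marrow stroma, 13 lay above the median signal. Prrx1, a mesenchymal transcription factor gene, had 9.75, 9.34 and 8.60 in GFP+FOG1 and 9.29, 9.57 and 9.67 in GFP. Snai2, which encodes the transcription factor Slug, had 9.62, 9.30 and 8.44 in GFP+FOG1 and 9.23, 9.46 and 9.53 in GFP. In both, as in Col1a1 and Col1a2, GFP+FOG1 replicate 1 was the highest array and replicate 3 the lowest. Thy1, by contrast, had 8.38, 8.29 and 8.43 in GFP+FOG1 and 8.82, 8.59 and 8.56 in GFP. Alpl stayed between 11.76 and 11.78 in GFP+FOG1 and between 11.82 and 11.87 in GFP. The list's mean level was 7.38, 7.24 and 7.14 on GFP+FOG1 arrays 1, 2 and 3, and 7.27, 7.39 and 7.41 on the GFP arrays. Its median position relative to the GFP mean was 0.03, -0.089 and -0.094 on the GFP+FOG1 arrays, so replicates 2 and 3 lay close together. Replicate 3 was the lowest array for 8 of its 20 genes and replicate 1 the highest for 4, against 17.9% and 12.2% of all probe sets. Within GFP+FOG1, replicate 1 was the highest and replicate 3 the lowest for 8 of the 20, against 16.9% of all probe sets. Within GFP, replicate 1 was the lowest array for 15 of the 20, against 38.6%. Of the 20 genes, 13 lay above the receptors' 95th percentile. The part of such cells in the matrix signals was not tested.

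Among the other marker lists, replicate 3 was the lowest array for 0 of 10 endothelial and 1 of 10 monocyte and macrophage markers. The mean level of 11 B-lineage markers was 10.53, 10.55 and 10.58 on the GFP+FOG1 arrays, and 10.62, 10.58 and 10.56 on the GFP arrays, and replicate 3 was the lowest array for 0 of 11. The one closest to the threshold was Cd79a, at 12.59, 12.77 and 12.70 in GFP+FOG1 and 13.09, 13.10 and 13.07 in GFP (log2 change -0.41; limma adjusted p = 0.088). Endothelial markers had mean levels of 6.63 to 6.72 in GFP+FOG1 and of 6.66 to 6.77 in GFP, with 3 of 10 above the median signal. Monocyte and macrophage markers had 6.72 to 6.83 in GFP+FOG1 and 6.82 to 6.86 in GFP, with 2 of 10 above it. The endothelial markers Cdh5 and Emcn and the macrophage markers Cd14 and Lyz2 lay below the receptors' percentile on the GFP arrays.

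**Figure D3:**
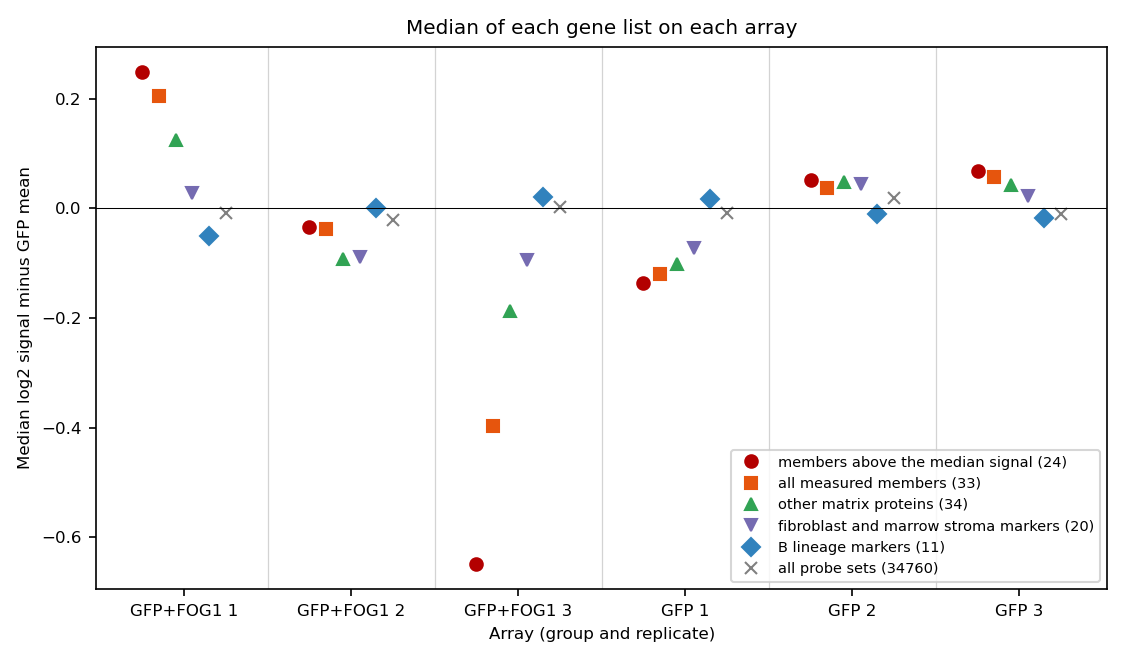
Median log2 signal relative to the mean of the 3 GFP arrays, for each gene list (symbols, number of genes in brackets) on each array, GFP+FOG1 on the left. The 24 genes above the median signal lie at 0.25, -0.03 and -0.65 on the GFP+FOG1 arrays, while B-lineage markers and all probe sets stay near 0.

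**Figure D4:**
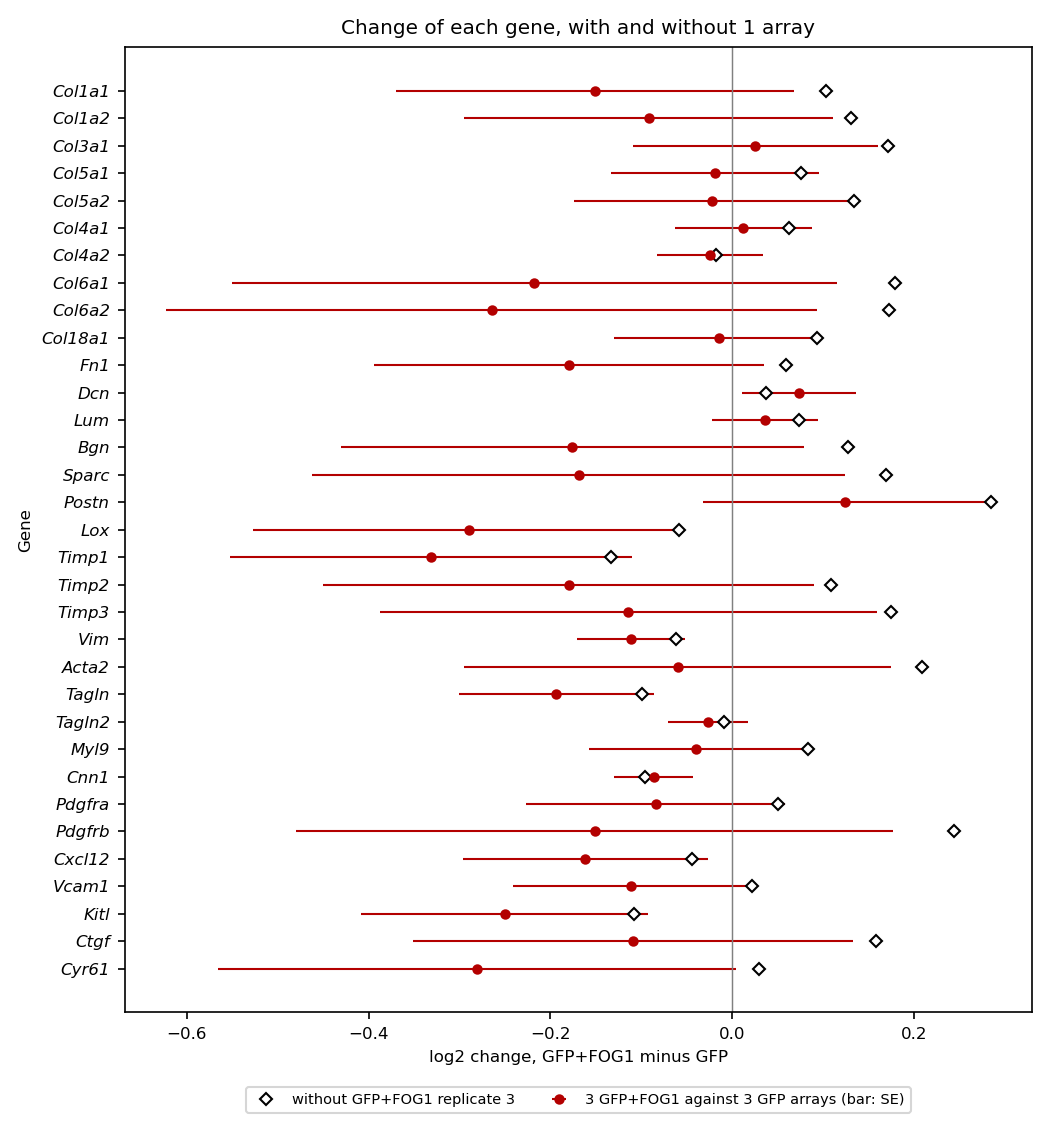
The log2 change, GFP+FOG1 minus GFP, for each of the 33 genes, with its SE (red), and the same without GFP+FOG1 replicate 3 (open diamonds). With all arrays 28 genes lie below 0, and without that array 24 lie above it.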

How the data were processed

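The authors deposited log2 values from 34760 probe sets and 6 arrays; their range showed the scale. Per the submitters' processing notes, affy was used. Background correction, normalization and probe summary: not given in the sources used here. Per the labels' protocols, 100 ng of RNA, isolated without DNase treatment, was amplified with a whole-transcript kit. Such values show changes relative to the rest of an array.

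Genes were named through the platform annotation, from 21640 probe sets with 1 symbol. Ctgf and Cyr61 were matched under their current symbols Ccn2 and Ccn1. Each measured gene of the main list had 1 such probe set. Tests used R 4.3.3 and limma 3.58.1 (lmFit and eBayes without a block), adjusted over all probe sets by Benjamini-Hochberg, at 0.05. The fit was tested on simulated data. No set test was run. The 35 genes and the lists were chosen with earlier results of these data known. Named were all measured members, Zfpm1, and, of each list, genes among the 4 with the smallest p or the highest signal, with exceptions said beside them. Precision is limited by 3 arrays in each group. Python 3.11.15 and matplotlib 3.10.9 drew the figures.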

Additional observations from a re-analysis of the deposited data

How the results depend on the processing

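No member passed under any of the alternatives run. These were quantile normalization, median centring, leaving out dim probe sets, 1-symbol probe sets only, the replicate block, array weights and a robust variance trend. Each array was also left out in turn. The lowest adjusted p was 0.171 (limma), for Cxcl12 without GFP+FOG1 replicate 1. Taking the mean over probe sets could change no member, as each had 1 probe set. An adjusted p under 0.10 could add none, as the lowest in the main fit was 0.461 (limma). The median log2 change of -0.11 lay between -0.13 and -0.09 under the scaling, filter and weight alternatives, and between -0.28 (without GFP+FOG1 replicate 1) and 0.075 (without GFP+FOG1 replicate 3) with 1 array left out. The count of genes above the median signal stayed at 24 or 25 and was 27 at the receptors' percentile. In scalings chosen after seeing the data, replicate 3 stayed the lowest array for 28 genes, and replicate 1 the highest for 23 or 24. After median centring Col5a1 (0.0070), Col5a2 (0.0038), Col4a2 (0.0014) and Col18a1 (0.011) turned above 0, as did Col5a2 (0.0015) after quantile normalization, and Col4a1 (-0.0044) turned below 0 with array weights. The count of 78 probe sets was 9 with the replicate block and 17 to 38 with 1 array left out, where fewer samples are one reason. Deviations of same-numbered arrays from the group means correlated at -0.07, 0.01 and -0.04 for replicates 1, 2 and 3. Over the members alone they correlated at -0.49, 0.14 and -0.30. The labels do not say whether same-numbered arrays were prepared together. These correlations cannot decide it, since arrays prepared together need not deviate together. With the replicate block Zfpm1 (0.74) had a limma adjusted p of 0.097, and the block changed no call among the members. Of the 199 genes on the lists, 1 passed without dim probe sets, 1 with 1-symbol probe sets only and 1 with the variance trend, each time Cd79a. With 1 array left out, these log2 changes crossed 0: -0.35 to 0.10 for Col1a1, -0.29 to 0.13 for Col1a2, -0.065 to 0.17 for Col3a1, -0.12 to 0.075 for Col5a1, -0.19 to 0.13 for Col5a2, -0.042 to 0.062 for Col4a1, -0.069 to 0.0020 for Col4a2, -0.49 to 0.18 for Col6a1, -0.56 to 0.17 for Col6a2, -0.11 to 0.094 for Col18a1, -0.37 to 0.059 for Fn1, -0.39 to 0.13 for Bgn, -0.42 to 0.17 for Sparc, -0.40 to 0.11 for Timp2, -0.34 to 0.17 for Timp3, -0.28 to 0.21 for Acta2, -0.13 to 0.084 for Myl9, -0.24 to 0.051 for Pdgfra, -0.44 to 0.24 for Pdgfrb, -0.23 to 0.022 for Vcam1, -0.33 to 0.16 for Ctgf, -0.58 to 0.029 for Cyr61. The cause of these moves was not tested. Signal near the background limits what the 6 dimmest genes can show.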
